A study of Mus musculus with 12 samples.

Results

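The cytosolic ribosomal protein genes were examined in Oli-neu cells, a mouse oligodendroglial cell line, that had been kept for 16 h in conditioned neuronal medium or with Y27632, a small-molecule kinase inhibitor. Members were all genes whose symbol is Rpl or Rps followed by a number, with a suffix a, x, y or l allowed, together with Rplp0, Rplp1, Rplp2 and Rpsa, while kinases of the Rps6k family and pseudogenes were left out. This gave 72 of the 19087 named genes on the array, of which 46 encode proteins of the large subunit and 26 proteins of the small subunit, and they were read by 128 of 41230 features. Of these genes, 32 were read by 1 feature and 40 by several, up to 4 for Rpl29 and Rps28. All 128 annotated features had a value on every array, so no member was lost to a filter.

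The series held 12 two-colour arrays in 2 experiments of 6, and every array compared treated cells with untreated parallel cultures. The cells in all groups stably expressed a PLP-EGFP fusion protein, and whether they came from 1 clone was not stated in the sources used here. In the experiment with conditioned neuronal medium the treated RNA was in Cy3 on replicates 1 to 3 and in Cy5 on replicates 4 to 6, and in the Y27632 experiment it was in Cy5 on replicates 1 to 3 and in Cy3 on replicates 4 to 6. The labels call the first treatment a neuron treatment and spell the inhibitor Y27631, and the design text places neurons in both arms of the second experiment, whereas the methods describe conditioned medium and untreated cultures. The design text calls the 6 arrays of the first experiment technical replicates, and no source says that the arrays of either experiment came from separate cultures, so each p-value reflects only how far the arrays differed, which may be technical.

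Values are given in SD units, the authors' log ratios divided so that each array has an SD of 1, and a positive value means more transcript in treated than in untreated cells. This direction rests on the study's own gene lists. All 28 listed genes measured in each experiment took the listed direction after the sign was turned. Each listed gene was judged by its feature farthest from 0, not by the mean of its features. A ratio carries no level, so the identity of the cells could not be checked from the level of a marker. Over all genes tested, 27.6% were higher and 36.7% lower in conditioned medium, and 20.5% were higher and 19.5% lower with Y27632, which are the shares to read small marker lists against. Of 7 oligodendrocyte lineage markers measured, 6 were higher and 1 lower in conditioned medium, and 6 were higher and 0 lower with Y27632. Of 11 neuronal markers, 7 were higher and 2 lower in conditioned medium, and 1 was higher and 6 lower with Y27632. Of 6 astrocyte markers, 1 was higher and 3 lower in conditioned medium, and 4 were higher and 0 lower with Y27632. Marker medians differed by dye orientation. With Y27632 the astrocyte median was -0.10 with treated RNA in Cy3 and 0.84 in Cy5, and the neuronal median -0.08 and -0.61. The oligodendrocyte lineage median was 0.43 and 0.99 there. In conditioned medium the astrocyte median was -0.35 in Cy3 and 0.01 in Cy5, and the neuronal median 0.43 and 0.05. Of 4 microglial markers, 1 was higher in conditioned medium and 1 lower with Y27632, and the part of other cells in the ribosomal results was not tested.

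Ribosomal proteins join the ribosomal RNAs in the nucleolus to form the small subunit, which reads the mRNA, and the large subunit, which forms peptide bonds. Their mRNAs are among the most abundant of a growing cell and begin with a terminal oligopyrimidine (TOP) tract, a C followed by further pyrimidines, through which their translation is placed under the control of the kinase mTOR. In oligodendrocytes mTOR signalling is known for its role in differentiation and in the synthesis of myelin proteins. Ribosomal protein genes also have many processed pseudogenes of near-identical sequence, so a probe may bind more than the transcript it is named for.

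The start sites of members described below are shown to illustrate the TOP tract, as 30 bases in the sense of the gene, 15 before the annotated start and 15 from it on (RefSeq, GRCm38.p6). Capitals mark a run of pyrimidines that opens with a C, is followed by at least 4 more pyrimidines and begins within 5 bases of the annotated start.
Rpl15, chr14:18270972-18271001, minus strand: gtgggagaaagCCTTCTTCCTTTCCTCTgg
Rps10, chr17:27635230-27635259, minus strand: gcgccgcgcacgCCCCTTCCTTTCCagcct
Rps26, chr10:128626492-128626521, minus strand: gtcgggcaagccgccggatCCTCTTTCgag
Rplp2, chr7:141447636-141447665, plus strand: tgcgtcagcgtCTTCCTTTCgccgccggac
Rps6, chr4:86857353-86857382, minus strand: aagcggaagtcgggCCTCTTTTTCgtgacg
Rpl41, chr10:128549154-128549183, minus strand: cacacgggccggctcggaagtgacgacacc
Rpl4, chr9:64173372-64173401, plus strand: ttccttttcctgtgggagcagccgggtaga
Rpl23, chr11:97782425-97782454, minus strand: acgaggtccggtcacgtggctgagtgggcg
The last 3 genes have no such run at the annotated start and were chosen for their values described below, and members with and without a run are found among both high and low genes. An annotated start can lie some bases from the start used by the cells, which was not measured here. The window of Rpl4 holds pyrimidines upstream of the annotated start. Of 58 members with a window in RefSeq, 27 (46.6%) had a run at the start, against 5718 of 27025 genes (21.2%). Within 300 bases around the start, and on both strands, CCGGAAGT, a site of the ETS family, was found in 12 members (20.7%, against 4.31% of all genes) and GGGCGG, the GC box of Sp1, in 34 (58.6%, against 38.2%). AAGATGGC, a core of the YY1 site, was found in 5 members (8.62%, against 3.19%), CACGTG, the E-box of Myc, in 6 (10.3%, against 8.09%) and TATAAA in 6 (10.3%, against 15.7%).

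To ask how the ribosomal protein genes respond to conditioned neuronal medium, each gene was fitted over the 6 arrays with a term for the dye. Ribosomal protein genes were mostly lower in treated than in untreated cells by a small amount. Of the 72 genes, 44 were lower (61.1%, against 36.7% of all genes tested), 4 were higher (5.56%, against 27.6%) and 24 did not pass (limma, adjusted p under 0.05 over 19087 genes). The median was -0.38 SD units, against -0.08 over all genes. Few of the changes were large: 5 genes were lower by at least 1 SD unit (5.29% of all genes) and 2 were higher by as much (4.95%). In the large subunit 25 genes were lower, 3 higher and 18 did not pass, and in the small subunit 19 were lower, 1 higher and 6 did not pass, with medians of -0.39 and -0.36. Counted by feature, 66 of 128 were lower (32.7% of all features) and 13 higher (27.8%).

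With Y27632 the same gene family was mostly higher in treated cells. Of the 72 genes, 39 were higher (54.2%, against 20.5% of all genes tested), 1 was lower (1.39%, against 19.5%) and 32 did not pass. The median was 0.34 SD units, against -0.01 over all genes. At least 1 SD unit was reached by 4 genes that were higher (3.19% of all genes) and by 0 that were lower (2.68%). The large subunit had 24 genes higher, 1 lower and 21 that did not pass, and the small subunit 15 higher, 0 lower and 11 that did not pass, with medians of 0.34 and 0.37. Counted by feature, 61 of 128 were higher (19.2% of all features) and 5 lower (17.6%).

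**Figure D1:**
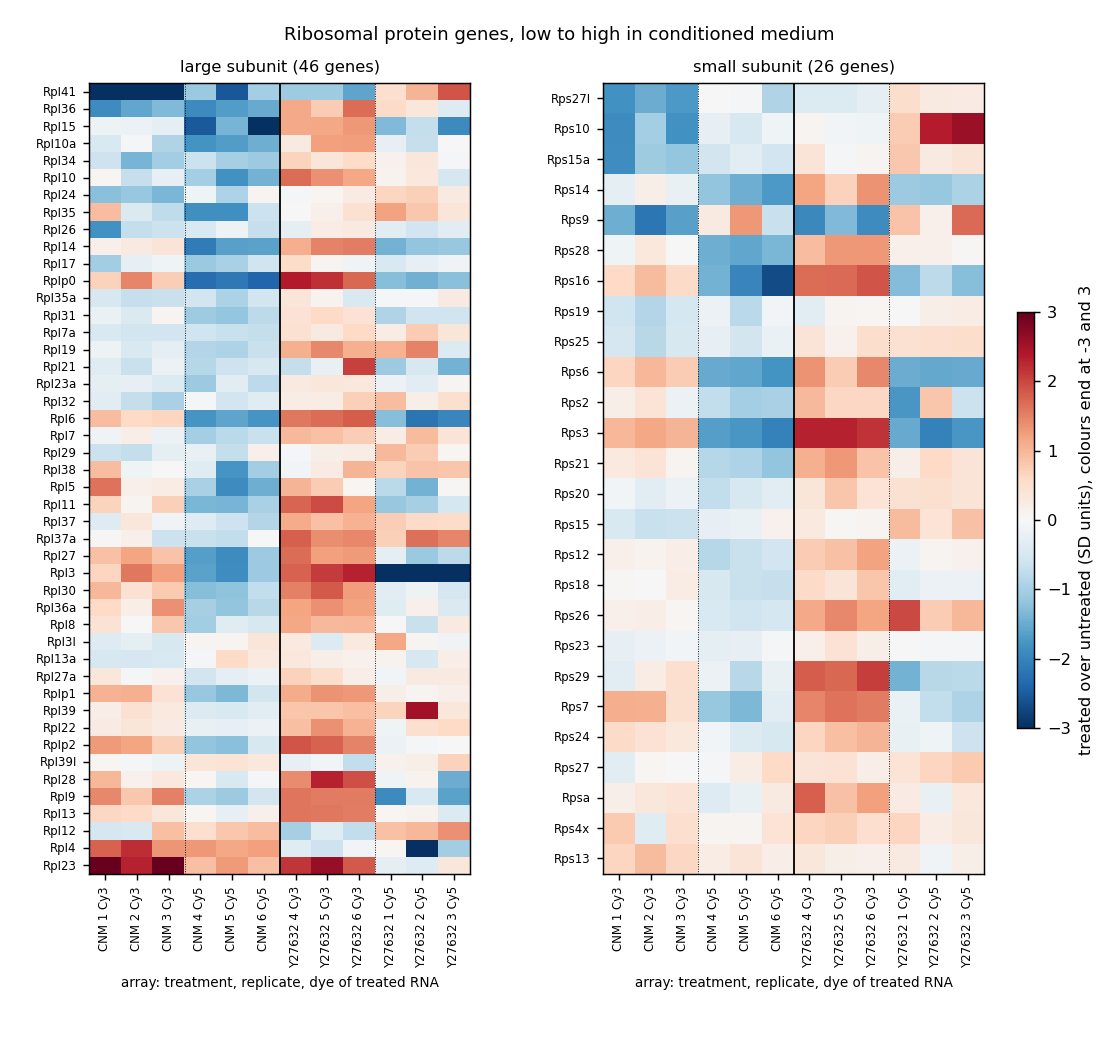
Value of each of the 72 ribosomal protein genes (rows, by subunit, from low to high in conditioned medium) on each of the 12 arrays (columns, CNM for conditioned neuronal medium, with the replicate number and the dye of the treated RNA), in SD units of treated over untreated. Blue prevails on CNM replicates 4 to 6 and red on Y27632 replicates 4 to 6, and the other 6 arrays hold both colours.

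The heat map of all members by array shows that the shift of the family was not the same on arrays of either dye orientation. In conditioned medium the median of the 72 genes was 0.05, 0.04 and -0.0020 SD units on the 3 arrays with treated RNA in Cy3, and -0.65, -0.77 and -0.57 on the 3 with treated RNA in Cy5. With Y27632 it was 0.80, 0.77 and 0.95 with treated RNA in Cy3, and 0.04, 0.09 and 0.05 with treated RNA in Cy5. In each experiment, then, the median of the family lay away from 0 in only 1 orientation. On the Cy5 arrays of conditioned medium 62, 62 and 57 of the 72 genes lay below 0, and on the Cy3 arrays of Y27632 60, 62 and 63 lay above 0. On the remaining 6 arrays between 36 and 39 genes lay above 0. The median of all genes lay between -0.10 and 0.10 on every array.

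**Figure D2:**
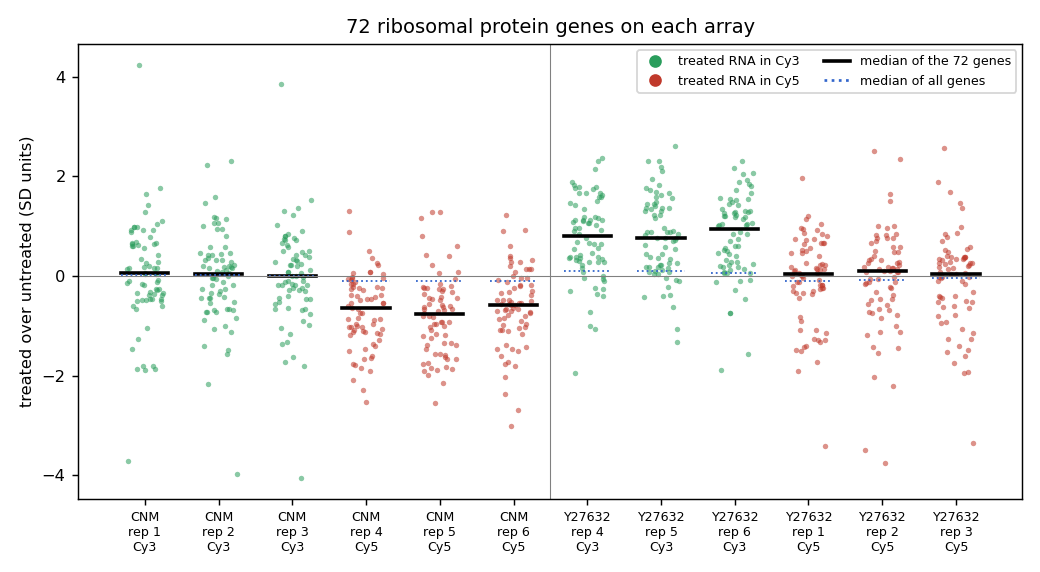
Values of the 72 ribosomal protein genes (points) on each array, in SD units of treated over untreated, with the median of the members (black bar) and of all genes (dotted bar), by treatment (CNM, conditioned neuronal medium) and by the dye of the treated RNA. The members' median lies between -0.77 and -0.57 on the CNM arrays with treated RNA in Cy5, between 0.77 and 0.95 on the Y27632 arrays with treated RNA in Cy3, and near 0 on the other 6.

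The fit splits each gene into a treatment part and a dye part, the dye part being Cy3 over Cy5 whichever RNA carried the dye. The dye part of the ribosomal protein genes was about as large as their treatment part: the median absolute size was 0.39 for the dye part and 0.40 for the treatment part in conditioned medium, and 0.52 and 0.40 with Y27632. Its median was 0.28 SD units in conditioned medium (0.02 over all genes), with 40 genes higher in Cy3 (30.2% of all genes) and 10 lower (28.3%). In the Y27632 experiment its median was 0.37 (0.07 over all genes), with 34 higher (29.9%) and 7 lower (23.5%). The means of the 2 orientations had opposite signs in 38 of 72 genes in conditioned medium (52.8%, against 45.2% of all genes) and in 41 with Y27632 (56.9%, against 57.3%). Of the 44 genes called lower in conditioned medium, 29 were below 0 in either orientation (65.9%, against 68% of all genes called lower), and of the 39 called higher with Y27632, 26 were above 0 in either (66.7%, against 72%). On all 6 arrays, 20 genes lay below 0 and 3 above 0 in conditioned medium, and 16 lay above 0 and 0 below with Y27632. The share of members with 1 sign on all 6 arrays was near that of all genes, at 31.9% against 34.5% in conditioned medium and 22.2% against 20.6% with Y27632. Without the dye term, which leaves the dye in the error, 21 genes were lower in conditioned medium and 8 higher with Y27632. The share of all genes under that setting is not given here, so these 2 counts cannot be set against it.

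Arrays of the same orientation correlated over the 72 genes at r = 0.77 to 0.89 in conditioned medium and at 0.70 to 0.91 with Y27632. Arrays of opposite orientation correlated at -0.08 to 0.14 and at -0.67 to -0.29, and over all features at 0.25 to 0.30 and at -0.26 to -0.12. Arrays of 1 orientation share the dye of the treated RNA, whether they share its source was not stated for both experiments, and genes are not independent replicates. Repeated arrays of 1 orientation therefore gave like values for this family while the swapped arrays did not.

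**Figure D3:**
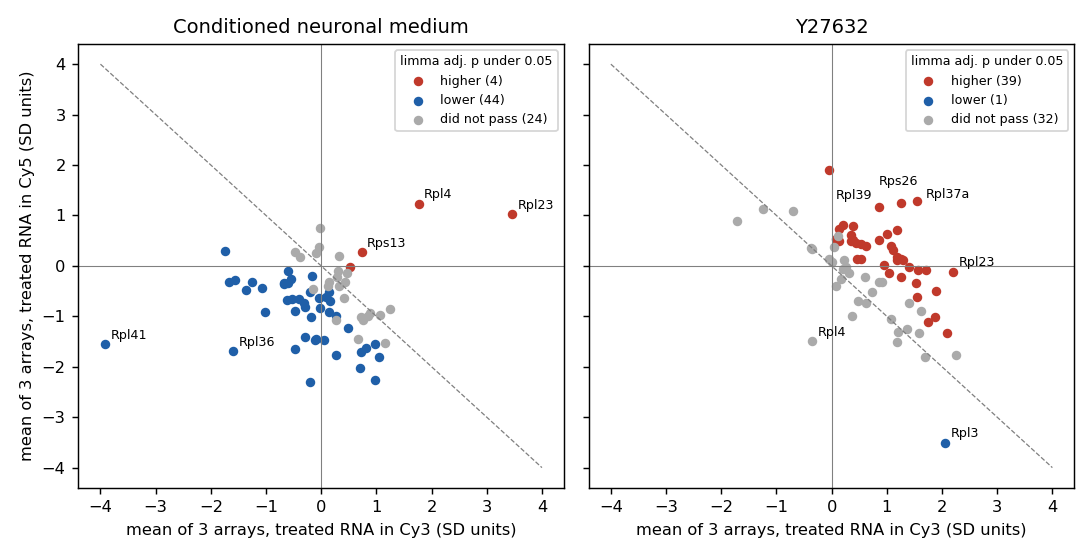
Mean value of each ribosomal protein gene over the 3 arrays with treated RNA in Cy3 (horizontal axis) and in Cy5 (vertical axis), in SD units of treated over untreated, for conditioned neuronal medium (left) and Y27632 (right). Colours give the call of the fit, and on the dashed diagonal the treatment part is 0; 38 genes on the left and 41 on the right have means of opposite sign.

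As the plot of the 2 orientations shows, a few genes stood well away from the rest. Many of the genes described from here on were read by 1 feature, so agreement between features could not be asked. Among them are Rpl3, Rpl4, Rpl10a, Rpl15, Rpl37a, Rpl39, Rpl41, Rps9, Rps10, Rps26 and Rps27l. Rpl41, which encodes a very short and basic peptide of the large subunit, was the lowest member in conditioned medium. Its values were -3.70, -3.98 and -4.05 SD units with treated RNA in Cy3 and -1.10, -2.54 and -1.03 in Cy5, all below 0 but apart by orientation. The mean was -2.74 ± 1.40 (SD, n = 6 arrays; limma adjusted p = 2.98e-06). With Y27632 Rpl41 read 0.51, 1.01 and 1.89 with treated RNA in Cy5 and -1.07, -1.06 and -1.57 in Cy3, and its mean of -0.05 ± 1.38 did not pass (adjusted p = 0.847).

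Rpl36, a large subunit protein, was lower in conditioned medium on every array and by nearly the same amount, with values of -1.88, -1.56 and -1.33 in Cy3 and -1.91, -1.67 and -1.50 in Cy5. Its mean was -1.64 ± 0.22 (adjusted p = 9.75e-07), the smallest SD among the 7 members past 1 SD unit in conditioned medium, and its 2 features stood at -1.35 and -1.93. With Y27632 it read 0.56, 0.35 and -0.39 in Cy5 and 1.13, 0.77 and 1.67 in Cy3, higher on 5 of 6 arrays, with a mean of 0.68 ± 0.70 (adjusted p = 0.0095). Rpl7a moved by less, and evenly only as the mean of its features. That mean lay between -0.71 and -0.46 on the 6 arrays of conditioned medium and between 0.22 and 0.76 on those of Y27632. Single features of Rpl7a parted by dye. In conditioned medium a feature averaged 0.18 in Cy3 and -0.85 in Cy5, and another -1.33 and -0.36. With Y27632 the latter averaged -0.28 in Cy3 and 0.83 in Cy5. Rpl7a was named after its values were seen.

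The other members lower by at least 1 SD unit in conditioned medium were Rpl15, Rpl10a and Rps27l. Rpl15, a core protein of the large subunit, read -0.15, -0.18 and -0.29 in Cy3 and -2.53, -1.39 and -3.004 in Cy5, so that its mean of -1.26 ± 1.27 came mostly from 1 orientation. Rpl10a, the protein of the mobile L1 stalk, read -0.46, -0.07 and -0.90 in Cy3 and -1.79, -1.67 and -1.46 in Cy5, with a mean of -1.06 ± 0.70. Rps27l, a paralogue of Rps27 known as a target of p53, went the other way between the dyes, at -1.81, -1.49 and -1.72 in Cy3 and -0.01, -0.07 and -0.90 in Cy5, with a mean of -1.001 ± 0.81. None of the 3 passed with Y27632, where their means were -0.06, 0.30 and -0.01, but Rpl10a passed without replicate 4 (0.46, adjusted p = 0.0277). Rpl34 followed at -0.96 ± 0.30, below 0 on all 6 arrays as the mean of its 2 features. These features parted by orientation, with averages of -0.02 and -2.02 in Cy3 and of -0.91 and -0.90 in Cy5. With Y27632 Rpl34 stood at 0.33 ± 0.26 (adjusted p = 0.0197), a call lost without replicate 2, 4 or 6 (adjusted p = 0.0566, 0.0682 and 0.0596).

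The 4 genes called higher in conditioned medium were Rpl23, Rpl4, Rps13 and Rpl13. Rpl23, a protein of the subunit interface that can also bind Mdm2, read 4.24, 2.30 and 3.85 in Cy3 and 0.89, 1.28 and 0.90 in Cy5, with a mean of 2.24 ± 1.49 (adjusted p = 2.56e-05). It was also called higher with Y27632, at 1.05 ± 1.31, but there the arrays in Cy5 read -0.29, -0.38 and 0.33 and those in Cy3 2.14, 2.61 and 1.85. Rpl4, part of the wall of the peptide exit tunnel, read 1.77, 2.22 and 1.31 in Cy3 and 1.31, 1.16 and 1.22 in Cy5, above 0 on every array, with a mean of 1.50 ± 0.41 (adjusted p = 4.86e-06). With Y27632 its values were 0.06, -3.49 and -1.05 in Cy5 and -0.36, -0.62 and -0.08 in Cy3, and the mean of -0.92 ± 1.32 did not pass (adjusted p = 0.0869), though without replicate 1 it was -1.31 and passed (adjusted p = 0.019). Rpl13 was higher by only 0.25 ± 0.33, and leaving out replicate 1, 2, 4 or 6 ended the call, at adjusted p = 0.064, 0.0528, 0.056 and 0.0624.

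With Y27632 the genes higher by at least 1 SD unit were Rpl37a, Rps26, Rpl23 and Rpl39. Rpl37a, a zinc-binding protein of the large subunit, read 0.72, 1.65 and 1.47 in Cy5 and 1.80, 1.41 and 1.44 in Cy3, and at 1.41 ± 0.37 was the highest member (adjusted p = 0.000122). Rps26, which lies at the mRNA exit of the small subunit, read 1.98, 0.77 and 0.99 in Cy5 and 1.13, 1.44 and 1.19 in Cy3, with a mean of 1.25 ± 0.42. These 2 genes thus lay above 0.7 on all 6 arrays. Rpl39, a small protein of the exit tunnel, averaged 1.02 ± 0.76 with replicate 2 at 2.51 and the other 5 arrays between 0.35 and 0.89. In conditioned medium Rpl37a stood at -0.31 ± 0.42 (adjusted p = 0.0688), Rps26 at -0.20 ± 0.37 (adjusted p = 0.0234) and Rpl39 at -0.04 ± 0.40 (adjusted p = 0.618). The call of Rps26 there was lost without replicate 1, 3 or 5, at adjusted p = 0.0571, 0.0698 and 0.0696, and Rpl37a passed there without replicate 6 (-0.42, adjusted p = 0.02). Rpl19, at 0.95 ± 0.69, and Rps10, at 0.92 ± 1.24, came next with Y27632, and Rps10 owed this to its Cy5 arrays of 0.75, 2.35 and 2.58, with 0.07, -0.09 and -0.13 in Cy3.

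Rpl3, which reaches towards the peptidyl transferase centre, was the only member called lower with Y27632, and it had the widest gap between orientations. It read -3.42, -3.76 and -3.35 with treated RNA in Cy5 and 1.77, 2.10 and 2.30 in Cy3, so the mean of -0.73 ± 3.06 (adjusted p = 0.000966) describes neither set of arrays. In conditioned medium it read 0.64, 1.58 and 1.23 in Cy3 and -1.61, -1.86 and -1.10 in Cy5, and its mean of -0.19 ± 1.51 did not pass (adjusted p = 0.253). On all 12 arrays the RNA in Cy3 thus gave the higher value for Rpl3, whichever culture it came from. Rps6, the target of S6 kinase, behaved likewise, at 0.66, 0.998 and 0.76 in Cy3 and -1.51, -1.56 and -1.80 in Cy5 in conditioned medium, and at 1.34, 0.76 and 1.44 in Cy3 and -1.49, -1.54 and -1.52 in Cy5 with Y27632. Rps9 was lower with treated RNA in Cy3 than in Cy5, at -1.46, -2.17 and -1.62 in Cy3 and 0.27, 1.29 and -0.67 in Cy5 in conditioned medium, and at -1.94, -1.31 and -1.88 in Cy3 and 0.85, 0.15 and 1.69 in Cy5 with Y27632. It was called lower in conditioned medium (-0.73 ± 1.30, adjusted p = 0.0156), a call lost without replicate 2 (adjusted p = 0.0567), and its mean of -0.41 ± 1.52 with Y27632 did not pass (adjusted p = 0.119) but did without replicate 3 (-0.61, adjusted p = 0.0154).

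Rplp0, Rplp1 and Rplp2 form the acidic stalk, which draws translation factors to the ribosome. All 3 were called higher with Y27632, at 0.38 ± 1.89, 0.69 ± 0.62 and 0.81 ± 0.99, and leaving out replicate 1, 4 or 5 ended the call of Rplp0 (adjusted p = 0.0556, 0.0694 and 0.0651). In conditioned medium Rplp0 was lower at -0.65 ± 1.80 (adjusted p = 0.000707), whereas Rplp1 at -0.08 ± 1.07 and Rplp2 at 0.05 ± 1.16 did not pass. Behind the mean of Rplp0 were values of 0.68, 1.47 and 0.75 in Cy3 and -2.30, -2.14 and -2.37 in Cy5 in conditioned medium, and of 2.37, 2.19 and 1.73 in Cy3 and -1.28, -1.45 and -1.26 in Cy5 with Y27632. Rplp0 thus changed sign with the dye in both experiments. Rpsa, a small subunit protein also known as a laminin receptor, was higher with Y27632 at 0.71 ± 0.74 and stood at 0.10 ± 0.32 in conditioned medium (adjusted p = 0.381). By orientation, Rpsa averaged 1.30 in Cy3 and 0.11 in Cy5 with Y27632, and 0.31 and -0.11 in conditioned medium.

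Among paralogues with the suffix l, Rpl39l, known from the testis, stood at 0.16 ± 0.24 in conditioned medium (adjusted p = 0.053) and -0.01 ± 0.48 with Y27632 (adjusted p = 0.958). Rpl3l, known from striated muscle, stood at -0.10 ± 0.33 and 0.22 ± 0.53, and neither passed. Rps27, the parent of Rps27l, did not pass in conditioned medium at 0.09 ± 0.31 and was higher with Y27632 at 0.48 ± 0.21 (adjusted p = 0.00357), above 0 on all 6 arrays. Of these paralogues only Rps27l was called in either experiment, lower in conditioned medium, where Rps27 did not pass.

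Whether features of the same gene gave the same result could be asked for 40 genes. The median range between features of a gene was 0.75 SD units in conditioned medium and 0.63 with Y27632, larger than the median change of the family in either experiment. In conditioned medium every feature was lower in 7 genes (Rpl6, Rpl7a, Rpl11, Rpl24, Rpl31, Rpl34 and Rpl36; 17.5%, against 13.8% of the 8251 genes with several features) and higher in 1 (Rpl23; 2.5%, against 9.73%), and 4 genes had features called in both directions (Rpl29, Rps13, Rps19 and Rpsa; 10%, against 18.5%). With Y27632 every feature was higher in 6 genes (Rpl19, Rpl22, Rpl23, Rpl36, Rps21 and Rps4x; 15%, against 4.73%) and lower in 0 (against 5.73%), and 3 had both directions (Rpl23a, Rps13 and Rps19; 7.5%, against 9.22%).

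**Figure D4:**
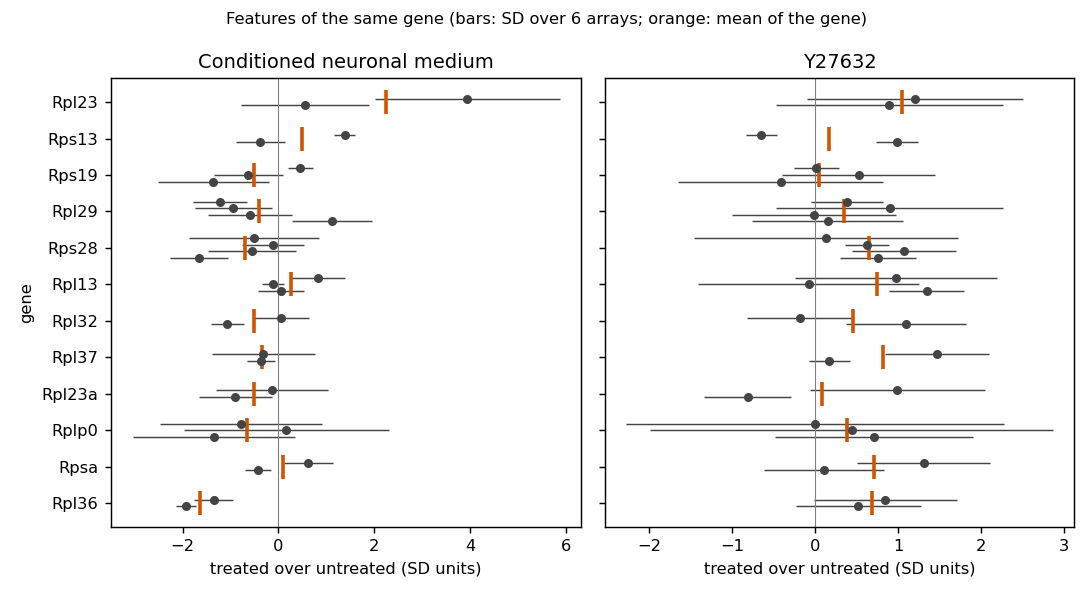
Value of each feature (points, with bars for the SD over 6 arrays) and the mean of the gene (orange marks) for 12 members with several features, in SD units of treated over untreated, in conditioned neuronal medium (left) and with Y27632 (right). The features of Rps13 stand at 1.38 and -0.38 on the left and at -0.65 and 0.98 on the right, while both features of Rpl36 lie on the same side in each panel.

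In the plot of features by gene, Rps13, a protein of the small subunit, had features that parted in both experiments. The feature annotated to BC011192 read between 1.14 and 1.69 on the 6 arrays of conditioned medium and between -0.89 and -0.36 with Y27632. The feature annotated to NM_026533 averaged -0.38 ± 0.51 in conditioned medium and 0.98 ± 0.25 with Y27632. The first feature was thus even between orientations and opposed the second, and the call of Rps13 as higher rests on it. The features of Rpl23 differed in size, at 3.94 ± 1.93 and 0.55 ± 1.33 in conditioned medium, and the second read -0.70, -1.02 and -0.22 on the arrays in Cy5. Rpl29 had features at -1.22, -0.94, -0.59 and 1.12 in conditioned medium, and Rps28 at -0.51, -0.11, -0.55 and -1.66.

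The treatments were then set against each other on all 12 arrays, with a dye term in each experiment, as conditioned medium minus Y27632. An SD unit need not be the same size in both experiments, and whether the experiments shared untreated RNA was not stated. Of the 72 genes, 55 had a lower value in conditioned medium than with Y27632 (76.4%, against 27.6% of all genes) and 4 a higher one (5.56%, against 22.5%), namely Rpl23, Rpl4, Rps13 and Rpl3. The difference of Rpl3 (0.54, adjusted p = 0.0271) was lost without replicate 2, 3 or 6 of conditioned medium or replicate 2 or 4 of Y27632 (adjusted p = 0.0555 to 0.0697), and that of Rps13 (0.33, adjusted p = 0.0214) without replicate 2 or 5 of conditioned medium (adjusted p = 0.0561 and 0.0537). Counted by feature, 86 of 128 were lower (24.2% of all features) and 8 higher (22.1%). The widest differences were -2.69 ± 0.28 for Rpl41 (SE, adjusted p = 6.48e-06), 2.42 ± 0.45 for Rpl4 (adjusted p = 0.000659), -2.32 ± 0.19 for Rpl36 (adjusted p = 9.06e-07), -1.85 ± 0.27 for Rps10 (adjusted p = 0.000122) and -1.72 ± 0.20 for Rpl37a (adjusted p = 1.9e-05). Rpl36 and Rps10 were called in opposite directions, Rpl41 and Rpl4 only in conditioned medium and Rpl37a only with Y27632. Both calls of Rps10 came mostly from 1 orientation. It averaged -1.57 in Cy3 and -0.28 in Cy5 in conditioned medium, and -0.05 and 1.90 with Y27632. Rps28, with 4 features, differed by -1.35 ± 0.11 (adjusted p = 9.05e-07), at -0.71 ± 0.85 in conditioned medium and 0.64 ± 0.60 with Y27632.

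Other genes of ribosome production did not follow a single direction. Their shares are to be read against 27.6% of all genes higher and 36.7% lower in conditioned medium, and 20.5% higher and 19.5% lower with Y27632. The subunits left out by the naming rule had 4 of 5 lower in conditioned medium, and 2 of 5 higher and 1 lower with Y27632. Their median in conditioned medium was -0.16 in Cy3 and -1.52 in Cy5, and with Y27632 1.10 in Cy3 and -1.32 in Cy5. The most extreme of these subunits was Rpl36al, at -1.22 ± 0.78 in conditioned medium (adjusted p = 7.93e-05) and -0.11 ± 1.33 with Y27632 (adjusted p = 0.365). Rps3a1 was lower at -0.54 ± 1.70 and higher at 0.50 ± 2.10, with opposite signs in the 2 orientations of each experiment. The mitochondrial ribosomal proteins, which serve translation inside mitochondria, were lower in 60 of 78 in conditioned medium and higher in 3, with a median of -0.51 and nearly the same median in either orientation (-0.63 in Cy3, -0.46 in Cy5). With Y27632 they were lower in 24 and higher in 11. Mrps6 stood at -2.73 ± 0.49 in conditioned medium and 0.60 ± 0.51 with Y27632, and Mrpl37 at -1.74 ± 1.06 and -0.65 ± 1.01.

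The factors of ribosome biogenesis and RNA polymerase I were lower in 30 of 55 and higher in 10 in conditioned medium, and lower in 30 and higher in 2 with Y27632, with medians of -0.26 and -0.41. By orientation, the median of these factors was -0.28 in Cy3 and -0.40 in Cy5 in conditioned medium. With Y27632 it was -0.08 in Cy3 and -0.77 in Cy5, so it came mostly from 1 orientation. Mrto4, which acts in large subunit assembly, was at -1.91 ± 0.29 in conditioned medium and -0.37 ± 0.47 with Y27632 (adjusted p = 0.0922, and 0.016 without replicate 4). Emg1, a methyltransferase of the small subunit RNA, was at -1.58 ± 0.24 and -0.42 ± 0.31, and its call with Y27632 was lost without replicate 1, 4 or 5 (adjusted p = 0.0669 to 0.0922). Genes with a TOP tract that are not ribosomal proteins were higher in 13 of 21 and lower in 6 in conditioned medium, with a median of 0.36, and higher in 6 and lower in 5 with Y27632. The median of this TOP list changed sign with the dye. It was 0.47 with treated RNA in Cy3 and -0.19 in Cy5 in conditioned medium, and 0.41 and -0.14 with Y27632. Hnrnpa1, a splicing factor, stood at 1.11 ± 1.05 in conditioned medium and -0.26 ± 1.12 with Y27632 (adjusted p = 0.113, and 0.0409 without replicate 2). Eif4b, an initiation factor, stood at 0.82 ± 0.41 and -0.28 ± 0.61, and its call with Y27632 (adjusted p = 0.0393) was lost without any single one of replicates 1 to 5 (adjusted p = 0.0615 to 0.126).

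Cytosolic translation factors were near the shares of all genes in conditioned medium, with 7 of 28 higher (25%) and 11 lower (39.3%), and with Y27632 4 were higher (14.3%) and 12 lower (42.9%). Their median with Y27632 was -0.11 in Cy3 and -0.58 in Cy5. Eef1e1, a partner of tRNA synthetases, was lower in both experiments, at -1.34 ± 0.41 and -1.25 ± 0.29, as was Eif2b4, a subunit of the exchange factor of eIF2, at -0.96 ± 0.15 and -0.69 ± 0.27. Genes of Myc and mTOR control were also near the shares of all genes in conditioned medium, with 7 of 26 higher (26.9%) and 11 lower (42.3%), and with Y27632 9 were higher (34.6%) and 4 lower (15.4%). The median of these genes with Y27632 was 0.20 in Cy3 and 0.03 in Cy5. Myc itself, a transcriptional activator of ribosome production, read between 1.33 and 2.01 on the 6 arrays of conditioned medium (1.59 ± 0.27, adjusted p = 2.79e-07) and -0.31 ± 0.34 with Y27632 (adjusted p = 0.0254, and 0.0519 to 0.0841 without replicate 2, 3, 4 or 5), and Mycl stood at 1.36 ± 0.29 and 0.40 ± 0.85 (adjusted p = 0.0942 with Y27632, and 0.0236 without replicate 1). In conditioned medium Myc was called higher, and most ribosomal protein genes and biogenesis factors were called lower. The median of the ribosomal protein genes there was 0.02 in Cy3 and -0.66 in Cy5, and a link to Myc was not tested.

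**Figure D5:**
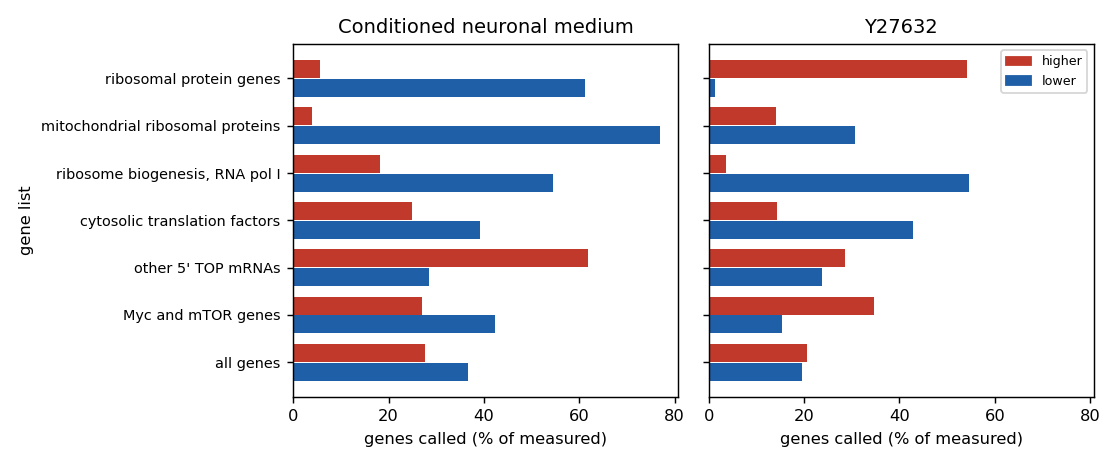
Percent of measured genes called higher (red) or lower (blue) in treated than in untreated cells for the ribosomal protein genes, for 5 further lists of ribosome production and translation, and for all genes, in conditioned neuronal medium (left) and with Y27632 (right). The ribosomal protein genes are called lower in 61.1% on the left and higher in 54.2% on the right, and the biogenesis list is called lower in 54.5% in both panels.

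The plot of the lists places these shares beside those of all genes. The lists hold genes chosen for their roles and no test compared a list with the rest of the genes.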

How the data were processed

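RNA of Oli-neu cells was amplified by PCR (Atlas SMART), labelled with Cy3 or Cy5 and hybridised to Agilent 44K mouse arrays. The authors deposited 1 score per feature and array, a log ratio of the 2 channels after loess normalization, divided to give an SD of 1 on each array, with dye swaps already turned to one direction. The log base and the centring were not given in the sources used here. No counts or intensities were used, so the number of arrays limits the precision. All signs were turned to treated over untreated. Of 44290 features, 3060 had no value and were left out. Gene symbols came from the platform annotation, updated through RefSeq, with 31906 of the 32042 probes annotated to 1 gene matched, and features of 1 gene were averaged.

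The 2 experiments were fitted apart in limma 3.58.1 (R 4.3.3) with an intercept and a dye term, and the difference on 12 arrays. Benjamini-Hochberg adjustment ran over 19087 genes or 41230 features, and all adjusted p-values are limma's. The fit was tested on simulated data. Members and gene lists were chosen with earlier results of these data known. Members were named as the 6 highest and 6 lowest per experiment, the stalk proteins and Rpsa, members ending in l with their parents, the 5 with the widest feature range per experiment and the 5 with the largest difference; list genes are the 2 with the smallest adjusted p. Rpl7a was added after its values were seen. Alternatives covered the dye term, single orientations, scaling, centring, feature summary, moderation, single arrays and a replicate block.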

Additional observations from a re-analysis of the deposited data

Results flagged for a closer look

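Of 96 groups of 6 arrays, for the 47 named genes and the median of the ribosomal protein genes in each experiment, 7 held an array that stood apart by Dixon's criterion. Chance gives this in about 1 group in 20 where all values come from 1 distribution, which does not hold where the 2 dye orientations stand apart. With Y27632 these were Rpl4 on replicate 2, at -3.49 SD units with the next array at -1.05, Rpl39 on replicate 2, at 2.51 with the next at 0.89, Rpl21 on replicate 6, at 2.05 with the next at -0.22, Rpl19 on replicate 3, at -0.40 with the next at 1.04, and Rpl37a on replicate 1, at 0.72 with the next at 1.41. In conditioned medium they were Rpl26 on replicate 1, at -1.82 with the next at -0.72, and Mrto4 on replicate 5, at -1.37 with the next at -1.87. Without replicate 6, Rpl21 stood at -0.73 with Y27632 and passed (adjusted p = 0.0123).

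For 38 of the 47 named genes the difference between the treatments passed the test of the difference itself (limma on 12 arrays, adjusted p under 0.05). The same test called 22.5% of all genes higher and 27.6% lower, and many of the named genes were chosen for extreme values or a large difference, so the count is a description. Given as conditioned medium minus Y27632, it was -2.69 for Rpl41, -2.32 for Rpl36, -1.85 for Rps10, -1.72 for Rpl37a, -1.51 for Rpl19, -1.44 for Rps26, -1.36 for Rpl10a, -1.35 for Rps28, -1.30 for Rpl34, -1.20 for Rpl15, -1.16 for Rpl37 and -1.06 for Rpl39. Smaller negative differences were -1.04 for Rplp0, -0.99 for Rps27l, -0.96 for Rpl32, -0.77 for Rplp1, -0.76 for Rplp2, -0.76 for Rpl29, -0.61 for Rpsa, -0.60 for Rpl23a, -0.59 for Rpl26, -0.55 for Rps19, -0.49 for Rpl13 and -0.39 for Rps27. The difference of Rps27 was lost without replicate 1, 4 or 5 of conditioned medium or replicate 3 or 5 of Y27632 (adjusted p = 0.0512 to 0.0671), and that of Rpl26 without replicate 6 of conditioned medium or replicate 5 or 6 of Y27632 (adjusted p = 0.0545 to 0.0632). The difference was positive for 4 ribosomal protein genes, at 0.33 for Rps13, 0.54 for Rpl3, 1.20 for Rpl23 and 2.42 for Rpl4. Among the genes outside the family it was -3.33 for Mrps6, -1.54 for Mrto4, -1.16 for Emg1, -1.11 for Rpl36al, -1.09 for Mrpl37, -1.04 for Rps3a1, 0.96 for Mycl, 1.11 for Eif4b, 1.37 for Hnrnpa1 and 1.90 for Myc. The sizes rest on the SD units of each experiment, and with the Y27632 arrays put on the spread of the conditioned medium arrays, an alternative chosen after seeing the data, 54 ribosomal protein genes were lower and 4 higher in conditioned medium.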

How the results depend on the processing

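The size of the family's shift depended on the orientation, and in 1 orientation of each experiment the median was near 0. The members' median in conditioned medium lay below that with Y27632 in either orientation. It was 0.02 against 0.86 with treated RNA in Cy3 and -0.66 against 0.04 in Cy5. With only the arrays that had treated RNA in Cy3, conditioned medium gave 22 ribosomal protein genes higher and 22 lower, a median of 0.0196, and 38 features higher and 32 lower; Y27632 gave a median of 0.86 with 4 genes and 9 features lower, and the difference 2 genes higher. With only those in Cy5, Y27632 gave 14 genes higher and 16 lower and 29 features in each direction, and the difference 33 genes lower. Without the dye term, conditioned medium gave 21 genes lower and 8 features higher and 29 lower, Y27632 8 genes higher and 0 lower with 15 features higher and 1 lower, and the difference 1 gene higher and 26 lower. Without moderation of the variance, Y27632 gave 24 genes and 34 features higher. Over the 40 members with several features, conditioned medium gave 28 genes lower, Y27632 0 lower, and the difference 2 higher and 32 lower, but fewer genes were counted there. Shares of all genes under the alternatives of this section are not given. The counts therefore do not show how far calls changed over all genes.

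Leaving out each array in turn gave 40 to 44 genes lower and 3 to 5 higher in conditioned medium (medians -0.40 to -0.33; 59 to 64 features lower and 12 to 14 higher), and 32 to 38 higher and 1 to 2 lower with Y27632 (medians 0.34 to 0.38; 48 to 57 features higher and 3 to 8 lower, with 8 without replicate 3 and 3 without replicate 4). The 2 genes called lower with Y27632 came without replicate 1, 3 or 6. The difference gave 50 to 54 genes lower and 2 to 4 higher, with 2 without replicate 2 of conditioned medium. Arrays of the same number in the 2 experiments did not deviate together (r of the residuals -0.033 to 0.082). Residuals left after the treatment and dye terms cannot show whether such arrays shared RNA, so no conclusion on pairing is drawn. A replicate block gave 3 genes higher and 53 lower in the difference and moved Rps13 to adjusted p = 0.0614.

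Apart from values that passed under neither setting, named genes turned in sign only in single orientations. With treated RNA in Cy3, conditioned medium gave 1.15 for Rpl3, 0.32 for Rpl39, 0.97 for Rplp0, 0.84 for Rplp1, 0.13 for Rps26, 0.0563 for Rps28, 0.99 for Rps3a1 and 0.80 for Rps6, and Y27632 gave 0.73 for Hnrnpa1, -0.70 for Rpl12, 1.20 for Rpl15, 2.06 for Rpl3, 1.10 for Rpl36al, -0.0462 for Rps10 and 1.18 for Rps6. In Cy5, conditioned medium gave -0.0130 for Rpl13, -0.97 for Rplp2 and 0.30 for Rps9, and Y27632 gave 0.26 for Eif4b, 0.25 for Mrpl37, -0.0833 for Rpl13, -0.11 for Rpl23, 1.14 for Rpl41, -1.33 for Rplp0, -0.0893 for Rplp2, -1.41 for Rps3a1 and 0.89 for Rps9. The difference turned to -0.91 for Rpl3 in Cy3 and 0.0703 for Rpl13 in Cy5. The cause was not tested.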
